A study of Mus musculus with 12 samples.

Results

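The genes described here are 10 genes that write, copy, remove or protect DNA methylation: Dnmt1, Uhrf1, Dnmt3a, Dnmt3b, Dnmt3l, Tet1, Tet2, Tet3, Zfp57 and Trim28. They were chosen by name, as the rows whose Ensembl identifier carries one of these symbols, out of 37991 genes in the count table. All 10 were found, and all 10 were among the 16708 genes that passed the filter on low counts. Dnmt3l passed on few reads, with 0 to 24 counts per library. RNA sequencing gave their levels in primordial germ cells, the embryonic precursors of eggs and sperm, sorted from mouse embryos at embryonic day E13.5. The 4 groups were female embryos with a conditional knockout (CKO) of Ezh2 (2 embryos), female control (Ctrl) embryos (3), male Ezh2 CKO embryos (3) and male Ctrl embryos (4), all C57BL/6, with 1 library per embryo. Ezh2 is the catalytic subunit of the Polycomb complex that methylates histone H3 at lysine 27. The column names mark CKO libraries as KO and Ctrl libraries as WT, without saying which alleles the controls carried. Which Cre drove the deletion, which part of Ezh2 was deleted and which embryos were littermates are not stated in the labels.

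In mouse cells DNMT1, brought to newly copied DNA by UHRF1, restores methyl groups on the daughter strand, while DNMT3A and DNMT3B, with their catalytically inactive partner DNMT3L, place new ones. TET enzymes oxidise methylcytosine, which leads to its loss, and ZFP57 binds methylated imprinting control regions and recruits TRIM28, which keeps their methylation in place in the early embryo. Primordial germ cells lose most DNA methylation, imprints included, and are near their lowest level at the stage sampled here. New methylation is then laid down before birth in male germ cells and after birth in growing oocytes.

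Library totals ran from 26180685 to 35299206 counts, and 1 CPM (the read count scaled to library size, with TMM factors applied) was 24.2 to 34.3 counts. Ezh2 itself was at 84.4 and 107 CPM in female CKO embryos, against 150, 145 and 166 CPM in female Ctrl embryos, and at 85.7, 82.3 and 85.0 CPM in male CKO embryos, against 96.6, 144, 129 and 119 CPM in male Ctrl embryos. Every CKO library lay below every Ctrl library of its sex, and reads from Ezh2 remained in all of them. The log2 fold change was -0.68 in females (edgeR adjusted p = 0.02) and -0.53 in males (edgeR adjusted p = 0.0527). In females Ezh2 did not pass once female CKO 1 was left out (edgeR adjusted p = 0.173) or once female Ctrl 3 was (0.0702), and in males it passed once male Ctrl 1 was left out (0.0161). The summed level of 8 germ cell markers was 5511 to 6159 CPM over the 12 libraries. It was 5666 and 5523 CPM in female CKO embryos, against 5860, 5835 and 6057 CPM in female Ctrl embryos. The male groups overlapped. In females Pou5f1, Dppa3, Kit and Prdm1 were lower and Ddx4 higher in every CKO than in every Ctrl embryo, while Dazl, Tfap2c and Nanos3 overlapped. Dppa3 is also in a pathway list below. The 38 markers of other cell types were low by comparison. The Sertoli cell list summed to at most 0.468 CPM in females and 29.6 CPM in males, the red blood cell list to at most 20.4 CPM, and the remaining lists to at most 15.9 CPM. The exception was the mesonephric list in males (89.9 to 113 CPM, against 6.20 to 23.0 CPM in females), carried almost wholly by Lhx1. In such bulk libraries, fewer cells of a type and less RNA per cell cannot be told apart.

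Compared per length of exon (RPKM, reads per kilobase of exon scaled to library size), Trim28 was the highest of the 10 genes in every group, with means of 123 RPKM in female CKO and 145 RPKM in female Ctrl embryos, and of 183 RPKM in male CKO and 204 RPKM in male Ctrl embryos. Dnmt1 followed (33.9, 61.1, 42.2 and 62.0 RPKM in the same order of groups), then Uhrf1 (28.1, 18.8, 29.3 and 18.6) and Tet1 (5.98, 7.82, 15.5 and 18.6). Dnmt3a averaged 2.86 to 4.25 RPKM, Dnmt3b 1.70 to 3.98 RPKM and Tet2 0.714 to 1.66 RPKM over the 4 groups. Zfp57, Tet3 and Dnmt3l were the lowest, with group means of at most 0.760, 0.182 and 0.131 RPKM. Neighbours in this order overlapped, or changed places by mean, in some groups. Tet3 and Zfp57 overlapped in both Ctrl groups, with the higher mean for Tet3 in female Ctrl embryos (0.182 against 0.142 RPKM). Tet3 and Dnmt3l overlapped in both male groups, with the higher mean for Dnmt3l. The mean of Dnmt3b was above that of Dnmt3a in male CKO embryos (3.98 against 3.64 RPKM). Length here was that of all annotated exons of a gene together, and the order of the genes depends on it. Dnmt3a and Dnmt3b overlapped in both CKO groups and in neither Ctrl group, Dnmt3b overlapped Tet2 in female Ctrl embryos, Dnmt1 overlapped Uhrf1 in male CKO embryos, and Uhrf1 overlapped Tet1 in male Ctrl embryos.

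**Figure D1:**
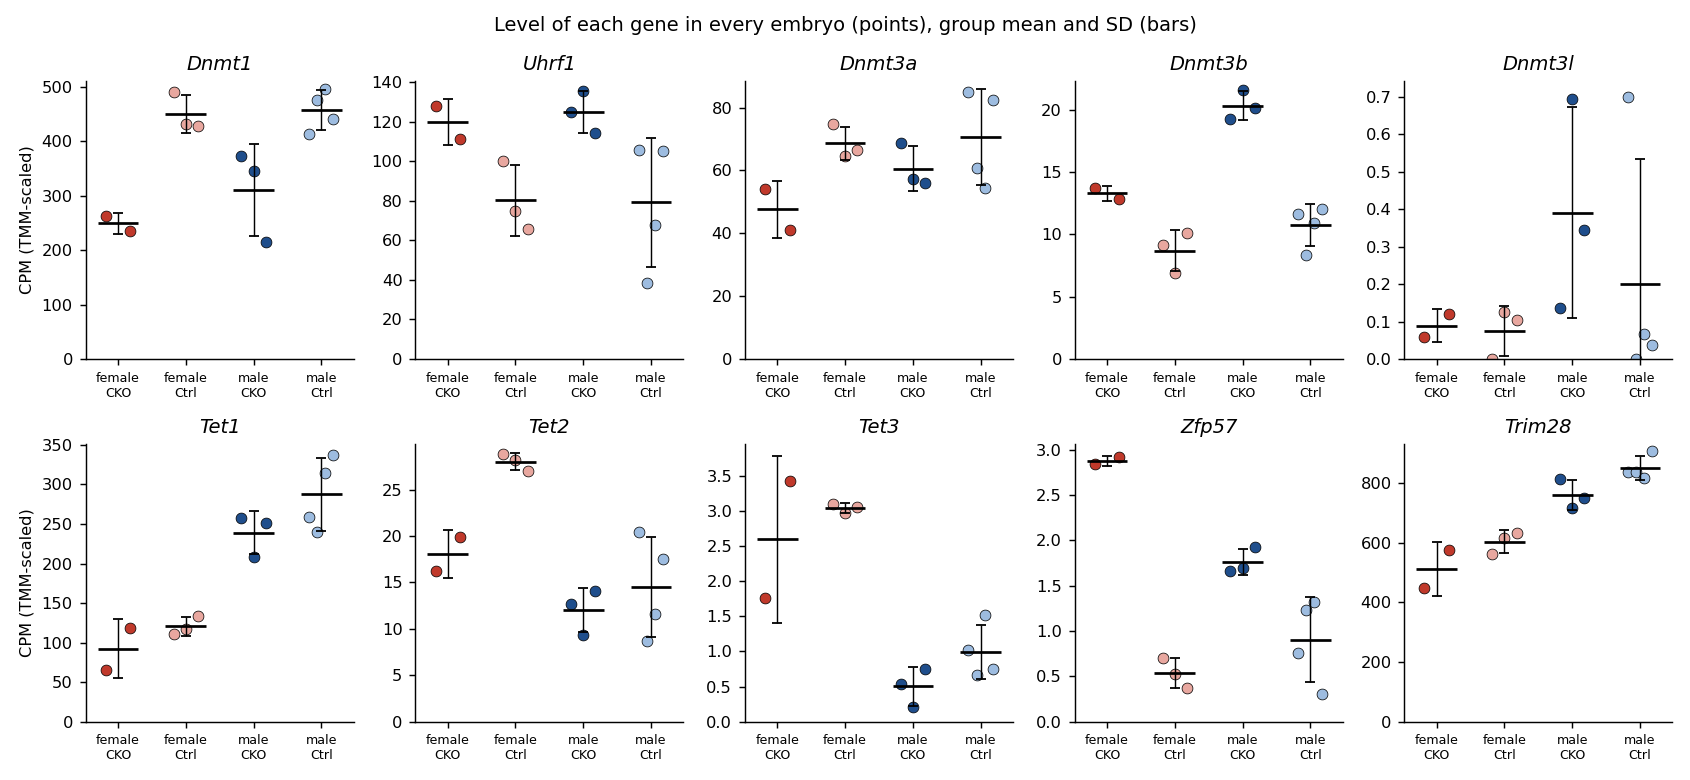
Level of each of the 10 genes in CPM (vertical axes from 0, a scale of its own for each gene) in each embryo (points), with the group mean (line) and SD (bar), in females (CKO n = 2, Ctrl n = 3) and males (CKO n = 3, Ctrl n = 4). Dnmt1 is lower, and Dnmt3b and Zfp57 higher, in every CKO embryo than in every Ctrl embryo of the same sex, while Tet1 and Trim28 are lower in every female than in every male embryo.

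Dnmt1, the maintenance methyltransferase, was lower in Ezh2 CKO germ cells. It was at 263 and 236 CPM in female CKO embryos, against 491, 432 and 428 CPM in female Ctrl embryos. In males it was at 373, 346 and 215 CPM in CKO embryos, against 414, 477, 497 and 442 CPM in Ctrl embryos. No CKO library reached the lowest Ctrl library of its sex, and male CKO 3 stood well below the other male CKO libraries. The mean was 250 ± 19.3 CPM in female CKO embryos (SD, n = 2) and 451 ± 35.3 CPM in female Ctrl embryos (SD, n = 3), a log2 fold change of -0.85 (standard error, SE, 0.18; 95% interval -1.25 to -0.45; edgeR adjusted p = 0.0177). In males the means were 311 ± 84.7 CPM in CKO embryos (SD, n = 3) and 457 ± 36.9 CPM in Ctrl embryos (SD, n = 4), and the log2 fold change of -0.56 (SE 0.15) did not pass the threshold of 0.05 (edgeR adjusted p = 0.0834). Averaged over the sexes, Dnmt1 fell by 0.70 on the log2 scale (edgeR, SE 0.12, adjusted p = 0.00253). In females Dnmt1 no longer passed when female CKO 1 was left out (edgeR log2 fold change -0.92 with adjusted p = 0.0719) and when female CKO 2 was left out (-0.76, 0.13), each leaving 1 female CKO library that is assumed to vary like the other groups. The averaged call held in all 12 fits that each left out 1 library, with edgeR adjusted p between 0.0017 and 0.0186.

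Uhrf1, which brings DNMT1 to half-methylated DNA, had the opposite sign. Female CKO embryos had 128 and 111 CPM, against 100, 74.9 and 65.6 CPM in female Ctrl embryos. Male CKO embryos had 125, 136 and 114 CPM, against 106, 38.5, 67.7 and 105 CPM in male Ctrl embryos. The groups did not overlap in either sex, but the Ctrl libraries were spread widely, male Ctrl 2 having the lowest value of all. The log2 fold change was 0.58 in females (SE 0.32; 95% interval -0.11 to 1.27; edgeR adjusted p = 0.3) and 0.65 in males (edgeR, SE 0.27, adjusted p = 0.24). The value averaged over the sexes was 0.62 (SE 0.21; 95% interval 0.16 to 1.07; edgeR adjusted p = 0.067), which passed the threshold without male Ctrl 1 (0.0366), male Ctrl 2 (0.0151) or male Ctrl 4 (0.0408).

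Among the de novo methyltransferases, Dnmt3b was higher in CKO embryos. Male CKO embryos had 19.2, 21.6 and 20.2 CPM, against 11.6, 8.33, 10.9 and 12.1 CPM in male Ctrl embryos. Female CKO embryos had 13.7 and 12.8 CPM, against 9.12, 6.88 and 10.1 CPM in female Ctrl embryos. The CKO libraries were tightly grouped and lay above all Ctrl libraries of their sex. In males the mean was 20.3 ± 1.17 CPM in CKO embryos (SD, n = 3) and 10.7 ± 1.67 CPM in Ctrl embryos (SD, n = 4), a 1.89-fold difference (log2 fold change 0.92, SE 0.17; 95% interval 0.55 to 1.29; edgeR adjusted p = 0.0213). In females the log2 fold change of 0.61 (SE 0.21; 95% interval 0.17 to 1.05) did not pass (edgeR adjusted p = 0.0889). Averaged over the sexes, Dnmt3b rose by 0.77 on the log2 scale (edgeR, SE 0.13, adjusted p = 0.00299), and this call held without any 1 of the 12 libraries (edgeR adjusted p 0.00208 to 0.0144). In males it no longer passed when male CKO 2 (edgeR adjusted p = 0.105), male CKO 3 (0.0813) or male Ctrl 3 (0.0624) was left out, and in females it passed when male Ctrl 2 was left out (0.0428). Over the 12 such fits its log2 fold change ran from 0.84 to 0.98 in males and from 0.49 to 0.73 in females.

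Dnmt3a, the other catalytically active de novo enzyme, had the opposite sign to Dnmt3b and was not called. It was at 54.0 and 41.2 CPM in female CKO embryos, against 74.6, 64.5 and 66.6 CPM in female Ctrl embryos, and the groups did not overlap (edgeR log2 fold change -0.53 with SE 0.20 and adjusted p = 0.122). In males it was at 68.8, 57.2 and 55.9 CPM in CKO embryos, against 85.1, 60.9, 54.3 and 82.4 CPM in Ctrl embryos, and the groups overlapped (edgeR log2 fold change -0.22 with adjusted p = 0.536). The averaged log2 fold change was -0.37 (edgeR, SE 0.13, adjusted p = 0.0648) and passed without male Ctrl 2 (0.0488) or male Ctrl 3 (0.0337). Exons of Dnmt3a share 133 bases with Dnmt3aos on the opposite strand in the GENCODE M21 annotation. Strand is not recorded by this library chemistry, and reads from that stretch could belong to either gene.

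Dnmt3l, the cofactor that rises in male germ cells later in development, was at the limit of detection. It had 2 and 4 counts in female CKO embryos, against 0, 4 and 3 counts in female Ctrl embryos. In males it had 4, 20 and 10 counts in CKO embryos, against 24, 0, 2 and 1 counts in Ctrl embryos. Only male CKO 2, male CKO 3 and male Ctrl 1 had more than 4 reads, and the groups of each sex overlapped. No CKO contrast passed (edgeR adjusted p = 0.95 in females and 0.738 in males). In males the fitted log2 fold change was 0.87 (95% interval -1.40 to 3.14), and 3.28 without male Ctrl 1 (edgeR adjusted p = 0.144). Over the 12 fits that each left out 1 library it ran from 0.198 to 3.28, so that single libraries set its size. Its exons share 67 bases with Aire on the opposite strand, so even these reads are not certain to be its own.

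Because the Dnmt3 genes differ in length, their balance was read from RPKM. The length used was that of all annotated exons together (16642 bases for Dnmt3a, 5106 for Dnmt3b), not of the transcript expressed. The size of the shares depends on this choice. In CPM the mean of Dnmt3a was above that of Dnmt3b in every group (47.6 against 13.3 in female CKO, 60.6 against 20.3 in male CKO embryos). Dnmt3b made up 45.1% and 50.01% of the summed Dnmt3a, Dnmt3b and Dnmt3l RPKM in female CKO embryos, against 28.5%, 25.6% and 32.8% in female Ctrl embryos. In males its share was 47.4%, 53.5% and 53.2% in CKO embryos, against 29.8%, 30.8%, 39.5% and 32.2% in Ctrl embryos. No CKO embryo of either sex had a share as low as the highest Ctrl embryo, which was male Ctrl 3. The mean Dnmt3b share was 47.6 ± 3.44% in female CKO embryos (SD, n = 2) and 29.0 ± 3.65% in female Ctrl embryos (SD, n = 3). It was 51.4 ± 3.42% in male CKO embryos (SD, n = 3) and 33.1 ± 4.37% in male Ctrl embryos (SD, n = 4). This share combines the Dnmt3b and Dnmt3a values above and is given as a description, with no test.

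**Figure D2:**
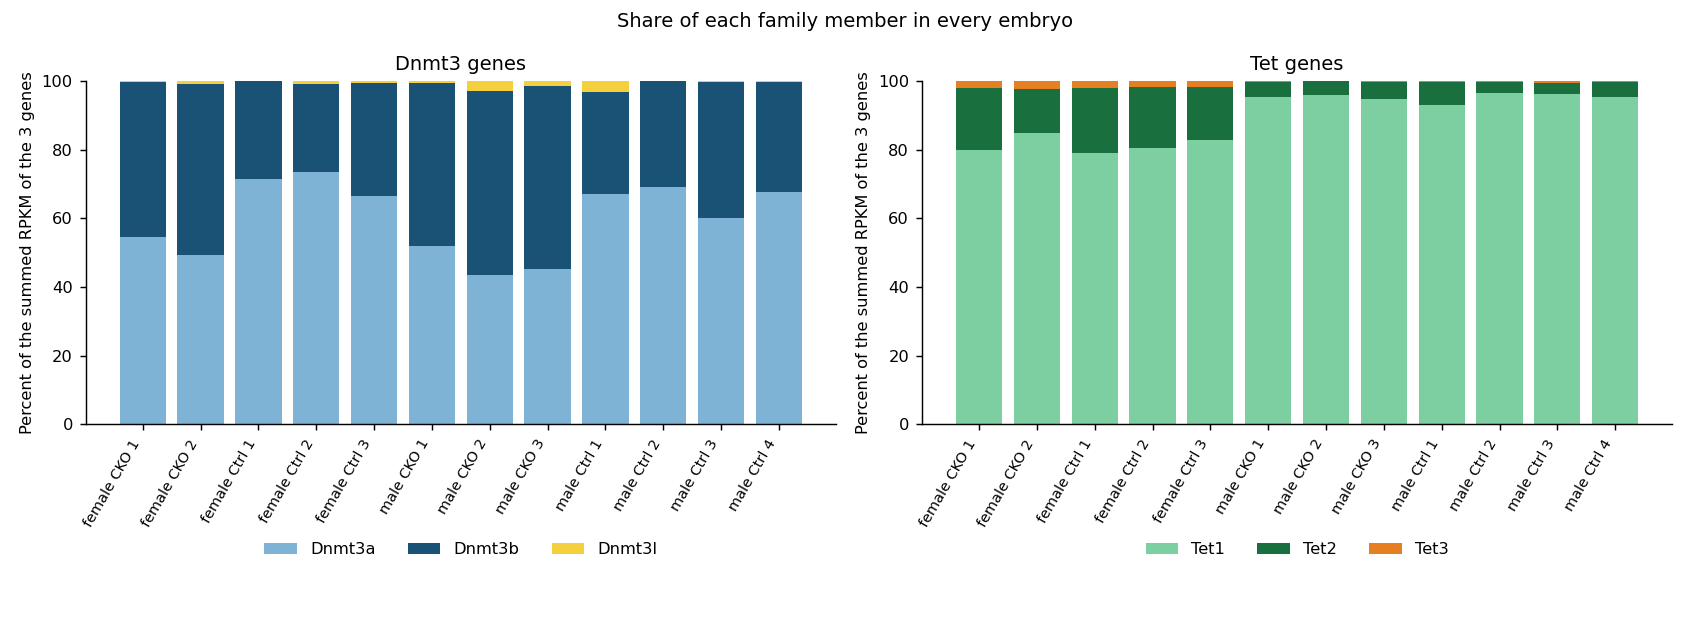
Share (percent, stacked bars from 0 to 100) of each gene in the summed RPKM of the Dnmt3 family (left) and of the Tet family (right) in each of the 12 embryos, females before males and CKO before Ctrl. Dnmt3b takes 45.1% to 53.5% of the Dnmt3 sum in CKO embryos and 25.6% to 39.5% in Ctrl embryos. In the Tet family the split runs by sex, with Tet1 at 92.9% or more in males and 84.8% or less in females.

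Zfp57, the zinc finger protein that holds methylation at imprints, showed the largest fold change of the 10 genes in females. Female CKO embryos had 2.84 and 2.92 CPM (97 counts in each), against 0.706, 0.531 and 0.377 CPM (23, 17 and 11 counts) in female Ctrl embryos. Male CKO embryos had 1.66, 1.70 and 1.93 CPM, against 0.759, 1.24, 1.32 and 0.303 CPM in male Ctrl embryos. Every CKO library was above every Ctrl library of its sex, and the CKO libraries of a sex were nearly equal while the male Ctrl libraries were scattered. In females the mean was 2.88 ± 0.0560 CPM in CKO embryos (SD, n = 2) and 0.538 ± 0.165 CPM in Ctrl embryos (SD, n = 3), a 5.3-fold difference (log2 fold change 2.41, SE 0.50; 95% interval 1.33 to 3.48; edgeR adjusted p = 0.0149). In males the log2 fold change of 0.96 (SE 0.42; 95% interval 0.06 to 1.86) did not pass (edgeR adjusted p = 0.266). Averaged over the sexes, Zfp57 rose by 1.68 on the log2 scale (edgeR, SE 0.33, adjusted p = 0.00539), also in each of the 12 fits without 1 library (edgeR adjusted p 0.00358 to 0.0207). The female call rests on few libraries. It needed each of 4 libraries, since it did not pass without female CKO 1 (edgeR log2 fold change 2.44 with adjusted p = 0.0613), female CKO 2 (2.40, 0.0693), female Ctrl 2 (2.41, 0.0513) or female Ctrl 3 (2.21, 0.0622).

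Red blood cell markers were uneven in the libraries in which Zfp57 and Dnmt1 moved. The 7 genes of that list summed to 16.3 CPM in female CKO 1 and to 1.14 CPM in female CKO 2, against 0.0921 to 2.06 CPM in female Ctrl embryos. Without female CKO 1 the log2 fold changes were 2.44 for Zfp57 and -0.92 for Dnmt1, beside 2.41 and -0.85 with it, and neither gene passed in that fit (edgeR adjusted p = 0.0613 and 0.0719). In males the list reached 20.4 CPM in male CKO 1, which had the lowest Dnmt3b level of the male CKO libraries, against at most 1.43 CPM in male Ctrl embryos. In females the endothelium list was also higher in both CKO embryos (4.94 and 5.05 CPM) than in every Ctrl embryo (2.76 to 3.84 CPM). The other lists outside germ cells overlapped there. Pax8 was at 3.10 and 4.75 CPM in female CKO embryos, against 0.399 to 0.995 CPM in female Ctrl embryos. Pdgfra (2.02 and 4.24, against 0.813 to 1.11 CPM) was also higher and Lhx1 (3.04 and 6.98, against 8.38 to 22.1 CPM) lower. The part of these cells in the results was not tested.

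Trim28, the corepressor that ZFP57 recruits, was not called in any CKO contrast. It was at 448 and 576 CPM in female CKO embryos, against 561, 614 and 634 CPM in female Ctrl embryos, and the groups overlapped. In males it was at 814, 716 and 749 CPM in CKO embryos, against 835, 836, 817 and 907 CPM in Ctrl embryos, and the groups did not overlap. The log2 fold change was -0.24 in females (edgeR, SE 0.11, adjusted p = 0.23) and -0.16 in males (edgeR adjusted p = 0.426). The averaged value of -0.20 (edgeR adjusted p = 0.0892) passed without female CKO 2 (-0.29, 0.0332).

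The sequence before the start of the 2 genes that were called higher in a CKO contrast of one sex is shown, since methylation acts at CpG sites and the 2 genes differ in how many they hold. The 250 bases before the most upstream RefSeq start on GRCm38.p6 are written 5′ to 3′ on the coding strand, with each CpG in capitals. They lie at chr17:37000913-37001162 (plus strand) for Zfp57 and chr2:153649199-153649448 (plus strand) for Dnmt3b, and no annotated exon lies in either window.
Zfp57: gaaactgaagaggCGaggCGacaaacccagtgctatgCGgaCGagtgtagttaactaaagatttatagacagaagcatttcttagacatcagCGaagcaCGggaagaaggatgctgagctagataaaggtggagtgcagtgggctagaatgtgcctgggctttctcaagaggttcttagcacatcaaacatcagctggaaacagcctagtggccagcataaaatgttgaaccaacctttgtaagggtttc
Dnmt3b: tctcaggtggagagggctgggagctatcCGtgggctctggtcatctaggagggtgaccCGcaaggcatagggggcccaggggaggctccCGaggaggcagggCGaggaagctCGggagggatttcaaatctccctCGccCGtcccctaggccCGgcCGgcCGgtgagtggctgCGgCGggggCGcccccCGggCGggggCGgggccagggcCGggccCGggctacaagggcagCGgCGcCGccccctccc
The Zfp57 window held 6 CpG sites with a GC content of 46.4% and an observed to expected CpG ratio of 0.466. The Dnmt3b window held 21 CpG sites with 75.2% GC and a ratio of 0.608. Over 27025 promoter windows of the same length the median was 6 CpG sites, 52% GC and a ratio of 0.379, and 31.4% of windows reached both a ratio of 0.6 and 50% GC. Zfp57 has 3 annotated starts, and the windows of the others hold 7 and 3 CpG sites. The letters TGCCGC, the sequence that ZFP57 binds when methylated, were looked for on both strands and were in neither window. Of the 10 genes, Tet3 and Trim28 had them in their windows, as did 8.57% of all promoter windows. An E-box (CACGTG, 6.04% of all windows) was in none of the 10 windows, and an E2F motif (GGCGGGAA, 1.91%) was in those of Uhrf1 and Trim28. Both were searched on both strands. Only the window of the most upstream start was searched for the 3 motifs, so further starts of Dnmt1, Uhrf1, Dnmt3a, Dnmt3l and Zfp57 were not covered. For Dnmt1 the window searched holds 2 CpG sites, and that of its start 3 holds 26. No methylation was measured in these libraries, so the sequences describe the genes and not their state.

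**Figure D3:**
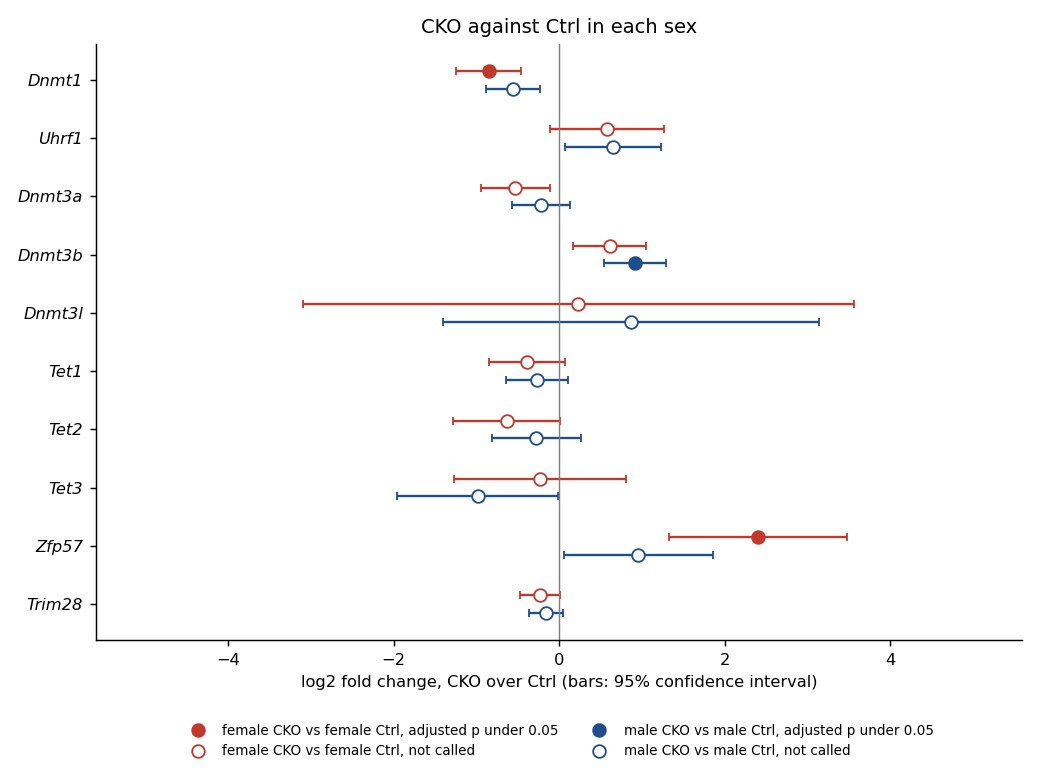
Log2 fold change of CKO over Ctrl (horizontal axis, bars are 95% intervals) for the 10 genes in females and in males, with filled points for an adjusted p under 0.05. Dnmt1 (-0.85) and Zfp57 (2.41) pass in females and Dnmt3b (0.92) passes in males, and for each of the 10 genes the intervals of the sexes overlap.

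With all 12 libraries in the fit, none of the TET dioxygenases was called in a CKO contrast. Tet1 was at 65.9 and 119 CPM in female CKO embryos, against 111, 118 and 134 CPM in female Ctrl embryos, and at 257, 208 and 251 CPM in male CKO embryos, against 259, 240, 314 and 337 CPM in male Ctrl embryos. The low value of female CKO 1 set the female fold change, which was -0.39 with it (edgeR adjusted p = 0.293) and -0.01 without it. For both sexes together the log2 fold change was -0.33 (edgeR adjusted p = 0.132), with -0.13 without female CKO 1 and -0.56 without female CKO 2, where it passed (0.017). Tet2 was at 16.2 and 19.9 CPM in female CKO embryos, against 28.8, 28.2 and 27.0 CPM in female Ctrl embryos. Although these groups did not overlap, the log2 fold change of -0.63 (SE 0.30) did not pass (edgeR adjusted p = 0.22). With only the female libraries in the fit it was -0.63 and passed (edgeR adjusted p = 0.0409). In males Tet2 was at 12.7, 9.39 and 14.0 CPM in CKO embryos, against 20.4, 8.66, 11.6 and 17.6 CPM in Ctrl embryos (edgeR log2 fold change -0.27 with adjusted p = 0.635). The averaged value was -0.45 (edgeR adjusted p = 0.138) and passed without male Ctrl 2 (0.0338). Tet3 was at 1.76 and 3.43 CPM in female CKO embryos, against 3.10, 2.97 and 3.05 CPM in female Ctrl embryos, and the groups overlapped. In males it rested on 6 to 46 counts per library, with 0.541, 0.208 and 0.757 CPM in CKO embryos, against 1.02, 0.660, 1.52 and 0.757 CPM in Ctrl embryos. Its log2 fold changes were -0.23 in females (edgeR adjusted p = 0.819) and -0.98 in males (95% interval -1.95 to -0.01; edgeR adjusted p = 0.295). The female value was 0.19 without female CKO 1, so that its sign rested on that library.

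Counted over the 10 genes, 1 was called higher (Zfp57) and 1 lower (Dnmt1) in female CKO embryos against female Ctrl embryos, where 7.17% of all tested genes were called, 3.01% higher and 4.16% lower. In male CKO embryos against male Ctrl embryos 1 was called higher (Dnmt3b) and none lower, with 1.7% of all genes called, 1.2% higher and 0.497% lower. Averaged over the sexes, 2 were called higher (Dnmt3b and Zfp57) and 1 lower (Dnmt1), with 14.7% of all genes called, 6.85% higher and 7.87% lower. The sexes share no libraries, but the averaged contrast is built from the same ones and is no further evidence. At an unadjusted p under 0.05 the counts were 4 of 10 in females, 5 in males and 8 averaged, beside 23.3%, 16.7% and 29.2% of all genes. In CPM, 6 of 10 genes did not overlap between CKO and Ctrl in females, where 44.6% of all genes did not, and 5 of 10 did not in males, where 15% did not. The median log2 fold change of the 10 genes was -0.23 in females, -0.19 in males and -0.26 averaged, beside medians over all genes of 0.00, -0.02 and -0.01.

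Whether the knockout acted differently in the sexes was tested with the difference between the female and the male log2 fold changes. In edgeR 0 of the 10 genes and 0% of all 16708 genes were called. At an unadjusted p under 0.05 there were 1401 genes, of which 1 was a member, Zfp57. limma-voom called 0 genes and DESeq2 called 61, none of them among the 10. The Zfp57 difference was 1.45 on the log2 scale (SE 0.66; 95% interval 0.04 to 2.86; edgeR adjusted p = 0.589). So although Dnmt1 and Zfp57 passed in females alone and Dnmt3b in males alone, no difference between the sexes in the response of these genes was shown.

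The genes whose levels ran most like the called members over the 12 libraries were found by the mean absolute difference of log2 CPM, each gene centred on its own mean, among about 9790 genes with a mean of at least 5 CPM. Nearest to Dnmt1 were Zfp532, Lamc1 and Gcn1l1, at 0.0937, 0.0982 and 0.104, where the median gene was at 0.388. Nearest to Dnmt3b were Cdc14b, Rimkla and Adgrl2, at 0.173, 0.177 and 0.181, with a median of 0.5003. Nearest to Zfp57 were Tktl2, Mlf1 and Mfsd1, at 0.351, 0.363 and 0.371, with a median of 0.887. Zfp57, at 0.303 to 2.92 CPM, was below the 5 CPM asked of a neighbour, so no gene at its level could be chosen. Its median distance was also larger than that of Dnmt1, which was at 215 to 497 CPM. The distances of different members can therefore not be compared directly.

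Between the sexes, Tet1 and Trim28 were lower and Tet3 higher in female germ cells of both genotypes. In CKO embryos 1 of the 10 genes was called higher in females than in males (Tet3) and 3 lower (Tet1, Trim28 and Dnmt3b), where 38.4% of all genes were called, 19.4% higher and 19% lower. In Ctrl embryos 2 were called higher (Tet2 and Tet3) and 2 lower (Tet1 and Trim28), where 39.5% of all genes were called, 20.1% higher and 19.4% lower. A share of 4 in 10 is thus close to that of all genes in both contrasts. The sexes did not overlap for 8 of the 10 genes among CKO embryos, beside 64.2% of all genes, and for 4 among Ctrl embryos, beside 43.4%.

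Tet1, the main dioxygenase of germ cells, averaged 92.4 ± 37.5 CPM in female CKO embryos (SD, n = 2) and 239 ± 27.1 CPM in male CKO embryos (SD, n = 3), a log2 fold change of -1.37 (edgeR adjusted p = 3.61e-04). In Ctrl embryos it averaged 121 ± 11.9 CPM in females (SD, n = 3) and 287 ± 45.8 CPM in males (SD, n = 4), a log2 fold change of -1.25 (edgeR, SE 0.18, adjusted p = 1.39e-04). Tet3 went the other way, with 2.59 ± 1.18 CPM in female and 0.502 ± 0.276 CPM in male CKO embryos (edgeR log2 fold change 2.36 with SE 0.50 and adjusted p = 0.00255) and 3.04 ± 0.0663 CPM in female and 0.990 ± 0.386 CPM in male Ctrl embryos (1.61, SE 0.41; edgeR adjusted p = 0.00698). Tet2 was higher in female Ctrl embryos than in male Ctrl embryos (28.0 ± 0.932 and 14.5 ± 5.38 CPM; edgeR log2 fold change 0.94 with SE 0.24 and adjusted p = 0.00773). In CKO embryos the Tet2 difference of 0.58 did not pass (edgeR adjusted p = 0.135). By length, Tet1 was the bulk of TET RNA in both sexes. Its mean share of the summed Tet RPKM was 82.4% in female CKO embryos and 95.4% in male CKO embryos, and 80.8% in female Ctrl embryos and 95.3% in male Ctrl embryos. The Tet2 share was 15.5% in female CKO and 4.38% in male CKO embryos, and 17.3% in female Ctrl and 4.43% in male Ctrl embryos.

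Trim28 was 512 ± 90.8 CPM in female and 760 ± 49.8 CPM in male CKO embryos (edgeR log2 fold change -0.57 with adjusted p = 0.00166), and 603 ± 37.7 CPM in female and 849 ± 39.7 CPM in male Ctrl embryos (-0.49, SE 0.09; edgeR adjusted p = 0.00112). The Dnmt3b call in CKO embryos, with 13.3 ± 0.622 CPM in females and 20.3 ± 1.17 CPM in males (edgeR log2 fold change -0.61 with SE 0.21 and adjusted p = 0.0334), was lost when any 1 of the 5 CKO libraries was left out (edgeR adjusted p 0.0547 to 0.148), with library size alone as the scale (0.125) and without the filter on low counts (0.058). In Ctrl embryos Dnmt3b was not called (-0.31, edgeR adjusted p = 0.186). Dnmt1 was at 451 ± 35.3 CPM in female and 457 ± 36.9 CPM in male Ctrl embryos, and Uhrf1 at 80.2 ± 17.9 CPM in female and 79.3 ± 32.5 CPM in male Ctrl embryos. Zfp57 was not called between the sexes (0.71 in CKO embryos, edgeR adjusted p = 0.265; -0.74 in Ctrl embryos, edgeR adjusted p = 0.211), though it passed in Ctrl embryos without male Ctrl 4 (0.0443), and Dnmt1 passed in CKO embryos without male CKO 3 (0.0072; 0.186 with it). Sertoli cell markers summed to 0.0902 to 0.468 CPM in females and 7.24 to 29.6 CPM in males, and their part in the sex differences was not tested.

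**Figure D4:**
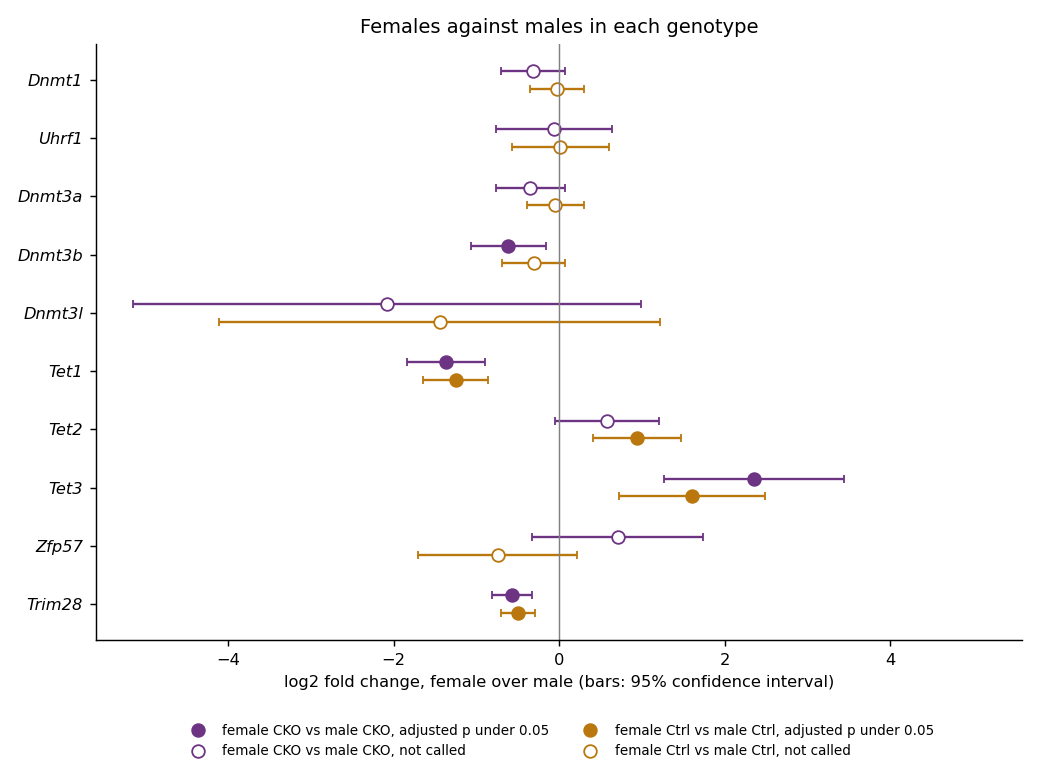
Log2 fold change of females over males (horizontal axis, bars are 95% intervals) for the 10 genes in CKO and in Ctrl embryos, with filled points for an adjusted p under 0.05. Tet1 and Trim28 pass as lower and Tet3 as higher in females of both genotypes, Dnmt3b passes in CKO embryos and Tet2 in Ctrl embryos.

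The wider pathway was covered by 52 further genes in 5 lists: partners of maintenance methylation, readers of methylated CpG, demethylation and base excision repair, imprint protection and establishment, and the supply of methyl donors. In the averaged contrast 3 of the 52 were called higher and 11 lower in CKO embryos, or 26.9%, beside 14.7% of all genes, and without female CKO 2 the count was 8 (1 higher and 7 lower). The median log2 fold change of the 52 was -0.13. In females 0 were called higher and 9 lower (17.3%, beside 7.17% of all genes). With library size alone as the scale, 2 were called higher (Neil3 and Arid4b) and 4 lower. The female count was 0 without female CKO 2, 2 without female Ctrl 2, 4 without female Ctrl 3, and 5 without female CKO 1, without female Ctrl 1 or without male CKO 2. In males only Cdca7 was called (1.92%, beside 1.7% of all genes).

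Of the 7 maintenance partners, Cdca7 and Cdca7l rose and Usp7 fell in the averaged contrast. Cdca7, which activates the remodeller HELLS, was at 169 and 189 CPM in female CKO embryos, against 157, 141 and 148 CPM in female Ctrl embryos, and at 283, 301 and 262 CPM in male CKO embryos, against 194, 244, 205 and 189 CPM in male Ctrl embryos. The CKO embryos were above the Ctrl embryos of their sex throughout, and the averaged log2 fold change was 0.35 (edgeR, SE 0.08, adjusted p = 0.00969). The male call (0.44, edgeR adjusted p = 0.0416) held in only 3 of 12 fits that each left out 1 library, and its edgeR adjusted p over them ran up to 0.174. Usp7, a deubiquitinase that stabilises UHRF1 and DNMT1, had an averaged log2 fold change of -0.34 (edgeR, SE 0.06, adjusted p = 0.00501) and was called in all 12 such fits. Cdca7l, a paralogue of Cdca7, had an averaged log2 fold change of 0.25 (edgeR adjusted p = 0.0317) and was called in 7 of the 12, the value reaching 0.095 without female CKO 2.

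Among the 17 genes of demethylation and base excision repair, Neil3 was called higher and Parp1 and Lig3 lower in the averaged contrast. Parp1, a sensor of DNA strand breaks, was at 431 and 372 CPM in female CKO embryos, against 777, 713 and 727 CPM in female Ctrl embryos. In males it was at 723, 703 and 511 CPM in CKO embryos, against 795, 985, 849 and 716 CPM in Ctrl embryos, so that the groups overlapped in males and not in females. Its averaged log2 fold change was -0.63 (edgeR, SE 0.10, adjusted p = 0.00218), called in all 12 fits without 1 library. Neil3, a glycosylase of oxidised bases, had an averaged log2 fold change of 0.55 (edgeR, SE 0.13, adjusted p = 0.0119).

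Of the 12 imprint partners 4 fell in the averaged contrast and none rose. They were Cbx3, which binds methylated histone H3 (edgeR log2 fold change -0.55 with SE 0.11 and adjusted p = 0.00645), Zfp445, a zinc finger protein that acts beside ZFP57 at imprints (-0.57), Atf7ip, a partner of SETDB1 (-0.40), and Dppa3, which protects maternal methylation in the zygote (-0.39). Among the 8 readers Mbd1 (-0.59, SE 0.12), Mbd3 (-0.36) and Zbtb38 (-0.36) fell. Of the 8 methyl donor genes Mtr, the methionine synthase, fell (-0.56). Without 1 library at a time, Zbtb38 was called in 5 of 12 fits (edgeR adjusted p up to 0.151), Zfp445 and Lig3 each in 7 of 12, Neil3, Mbd3, Dppa3 and Atf7ip in 11 of 12, and Cbx3, Mbd1 and Mtr in all 12. Zbtb38 was also lost with library size alone as the scale.

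**Figure D5:**
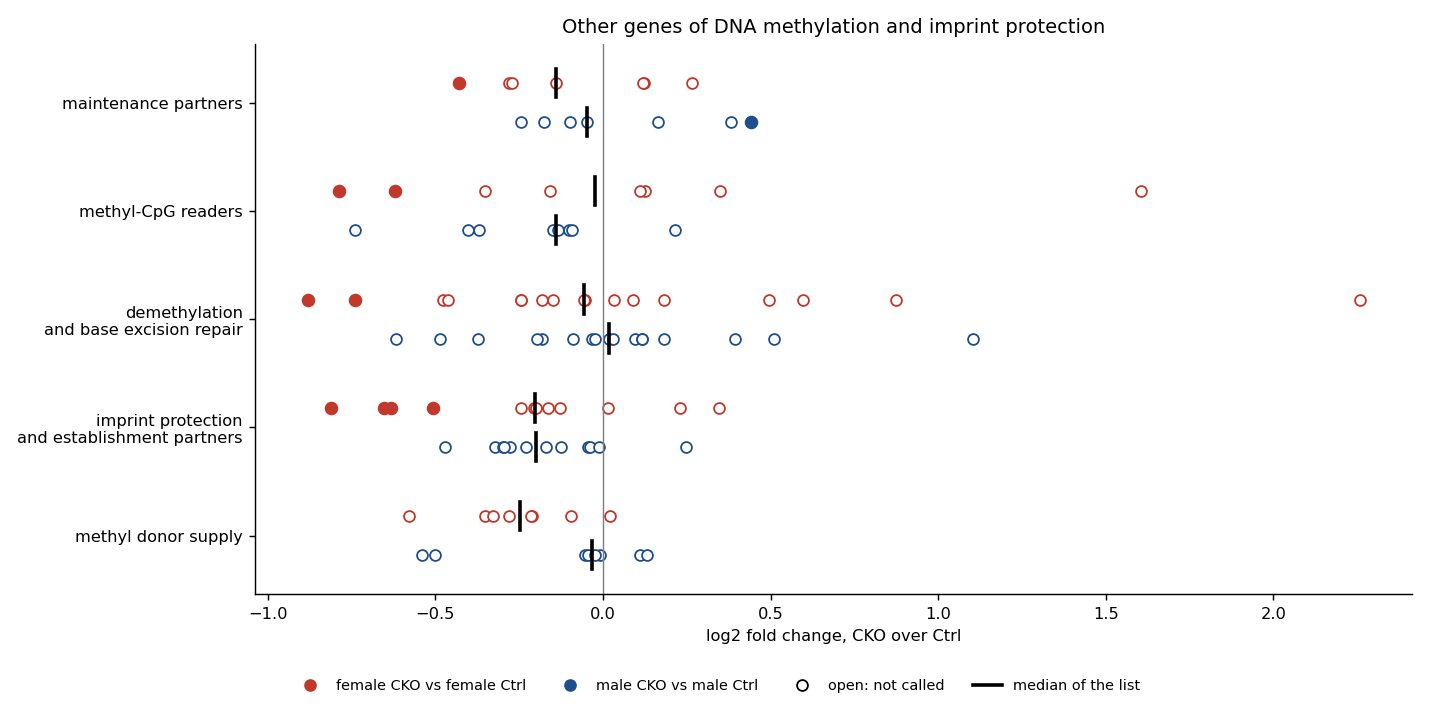
Log2 fold change of CKO over Ctrl (horizontal axis) for the 52 pathway genes by list, in females and in males, with filled points for an adjusted p under 0.05 and a black bar at the median of each list. The 9 filled points in females are all below 0, and the 1 filled point in males is Cdca7.

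Between the sexes 29 of the 52 pathway genes (55.8%, beside 38.4% of all genes) were called in CKO embryos, 9 higher and 20 lower in females. In Ctrl embryos 26 were called (50%, beside 39.5% of all genes), 9 higher and 17 lower in females. The CKO count was 18 without male CKO 1 or male CKO 2 and 19 without female CKO 1. The methyl donor genes were the most one-sided of the lists. All 8 were called lower in female CKO than in male CKO embryos (median log2 fold change -0.64), and 6 of 8 in female Ctrl than in male Ctrl embryos (median -0.54), none being called higher. Shmt1, a serine hydroxymethyltransferase that feeds the folate cycle, was at 142 and 157 CPM in female CKO embryos, against 416, 418 and 325 CPM in male CKO embryos, and at 131, 172 and 175 CPM in female Ctrl embryos, against 343, 431, 344 and 292 CPM in male Ctrl embryos. The sexes did not overlap in either genotype. The demethylation and base excision repair list went both ways. In females 4 of its genes were called higher and 4 lower among CKO embryos (median log2 fold change -0.24). Among Ctrl embryos 5 were called higher and 3 lower (median -0.18). Gadd45a, a stress gene linked to DNA demethylation and repair, was one of those higher in females. It was at 13.3 and 19.4 CPM in female CKO embryos, against 3.31, 5.06 and 5.02 CPM in male CKO embryos. In Ctrl embryos it was at 15.2, 18.5 and 17.3 CPM in females, against 1.81, 7.59, 4.93 and 3.25 CPM in males (log2 fold change 1.96).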

How the data were processed

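RNA of 12 libraries, each from the germ cells of 1 embryo, was measured by sequencing. The values are read counts per gene as the authors deposited them, unchanged. A SMART-seq V4 kit amplified cDNA of 1 ng RNA and NEBNext Ultra II gave the libraries, per the labels' protocols, a chemistry without strand information. Per the submitters' processing notes, Trimmomatic 0.33, TopHat2 2.0.11, CASAVA 1.8.4 and featureCounts were used, with mm9 and NCBIM37 as builds. How reads matching several places were counted is not given in the sources used here. Symbols (32919 genes, 99.5% of counts) and exon lengths for RPKM came from GENCODE M21 on GRCm38, and promoter windows from RefSeq on GRCm38.p6, so no coordinates of the counted genes are given.

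Groups came from the sample labels. edgeR 4.0.16 (R 4.3.3, limma 3.58.1) kept genes by filterByExpr (minimum count 10, minimum total 15), scaled libraries by TMM (factors 0.926 to 1.11) and fitted 1 coefficient per group to all 12 libraries (robust quasi-likelihood, 8 residual degrees of freedom). P-values were adjusted by Benjamini-Hochberg over 16708 genes, and a gene was called, or said to rise or fall, at an adjusted p under 0.05. CPM and RPKM use TMM-scaled sizes. The test was also run on simulated counts whose spread was set by expression level alone. These lack the extra spread of single genes and libraries, so they cannot show how the calls here hold. Libraries of a group differed by more than counting noise (chi-square per gene 18.6 to 74.2). The labels name separate embryos but no litters.

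All 10 members and Ezh2 were named whatever their result, with up to 4 called genes per pathway list and contrast and the 3 nearest profiles of each member called in a CKO contrast. The members and lists were chosen with earlier results of these data known, and the pathway lists support nothing about the members. The alternatives were other size factors, library size alone, no filter, only the groups compared, a replicate block, limma-voom, DESeq2 1.42.0 and leaving out each library.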

Additional observations from a re-analysis of the deposited data

Results flagged for a closer look

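In groups of 4 embryos, only male Ctrl could be searched for a library far from the others, and 42 genes named or listed here were looked at, of which 3 had one. Chance flags about 1 in 20 such groups. Dnmt3l was at 0.700 CPM (24 counts) in male Ctrl 1, against 0 to 0.0661 CPM in the other male Ctrl libraries, a gap of 0.906 of the whole range, above Dixon's critical value for 4 samples. The same library had the highest Sertoli marker sum, 29.6 CPM, and the part of those cells in the Dnmt3l reads was not tested. Lig1, a DNA ligase, was at 246 CPM in male Ctrl 1, against 296 to 306 CPM in the others (0.84 of the range). Arid4b, a chromatin protein linked to imprinting, was at 69.6 CPM in male Ctrl 4, against 62.2 to 63.1 CPM (0.882 of the range).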

How the results depend on the processing

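Over 4956 comparisons of the log2 fold change of a gene with its value under an alternative, 0 changed the sign of a called value. In 203 of them a call was lost, in 61 one was gained, and in 190 a value not called changed sign. The alternatives reuse the same libraries and are no independent check. Of the 10 genes, 2 were called in females with the settings used, 1 in males and 3 averaged over the sexes. Leaving out each library gave 0 to 3 in females, 0 to 1 in males, 3 to 6 averaged, 0 for the difference between the sexes, 3 to 4 between female and male CKO embryos and 4 to 5 between female and male Ctrl embryos. With only the groups compared the male count was 0 (Dnmt3b, edgeR adjusted p = 0.0556). DESeq2 called 3 in females (adding Dnmt3b), 2 in males (adding Dnmt1) and 5 averaged (adding Uhrf1 and Dnmt3a), and limma-voom 4 averaged (adding Uhrf1). With only the groups compared the female count was 3 (adding Tet2). With the numbers of the sample titles as a replicate block, 5 were called averaged, Uhrf1 (edgeR adjusted p = 0.0257) and Dnmt3a (0.0193) being added, and 3 in females, Dnmt3a (0.0238) being added. Dnmt3b between female and male CKO embryos did not pass with either block (0.0556 and 0.0537). With the numbers of the column names as the replicate block, a fit added after the data were seen, the female count was 1 (Dnmt1). The replicate numbers were not taken to pair the embryos, since the labels name no litters. Same-numbered libraries of the titles correlated at between -0.024 and 0.108 in their deviations from the group means. Not every male CKO library correlated best with its own number. With 2 female CKO libraries the deviations are mirror images, so these correlations cannot decide on pairing in females. Over all genes, 1198 were called in females, 789 with the column-name block, 1989 with DESeq2 and 326 to 1612 without 1 library. In males 284 were called, 62 with only the groups compared, 105 and 141 with the title and column-name blocks, 990 with DESeq2 and 37 to 525 without 1 library. Library size alone as the scale put the median log2 fold change of all genes at 0.11 in females and at 0.21 and 0.10 in the sex contrasts of CKO and Ctrl embryos. It split the calls into 650 higher and 356 lower in females (503 and 695 with TMM), 1503 and 782 averaged (1145 and 1315), 4335 and 2214 between the sexes of CKO embryos (3239 and 3172) and 4062 and 2592 between those of Ctrl embryos (3357 and 3246). Of the 52 pathway genes, leaving out each library gave 0 to 11 in females, 0 to 1 in males, 8 to 15 averaged, 18 to 32 between the sexes of CKO embryos and 19 to 27 between those of Ctrl embryos. The male pathway count of 1 was 2 with median-of-ratios factors, library size alone or no filter, 0 with only the groups compared or the title block, and 5 with DESeq2. The cause of these changes was not tested. Depth limits Dnmt3l most, with at most 24 counts, then Zfp57 and Tet3.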
